A study of Mus musculus with 8 samples.

Results

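Most microRNAs are cut from a long primary transcript in the nucleus by Drosha and its partner Dgcr8, exported as a hairpin and cut again in the cytoplasm by Dicer. A few skip the first cut. The hairpins of miR-320 and miR-484 have been reported to be transcribed directly as short capped RNAs that go straight to Dicer, and mirtrons, among them miR-702 and miR-1224, are short introns that fold into a hairpin once the splicing machinery has released and debranched them. The 4 miRNAs described here, mmu-miR-320, mmu-miR-484, mmu-miR-702 and mmu-miR-1224, were chosen by name for this shared origin, with their levels and their change in the comparison of CpG with untreated cells already known. All 4 were on the array, out of 567 mouse miRNAs. The values of that comparison are therefore a description of the 4. Which members passed the threshold of the fit over all miRNAs is told as part of that description and supports nothing, and no member's p-value is printed. No sample lacked Drosha, so that the grouping rests on background knowledge and was not tested by these arrays.

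The samples were dendritic cells grown from bone marrow of C57BL/6 mice, an inbred laboratory strain, with GM-CSF at 40 ng/ml and harvested as non-adherent cells on day 9. In 4 samples the cells were left untreated overnight, in medium or PBS depending on the label, and in 4 they were given the class B oligonucleotide CpG ODN1826 at 10 µM, a DNA with unmethylated CG pairs that is sensed by the Toll-like receptor TLR9. Every sample carried the same strain and growth factor, and no sample received a control oligonucleotide without CG pairs. The labels number the replicates but do not state whether each had its own mouse or culture, so that the calls reflect sample-to-sample spread that may be technical alone. The total RNA of each sample was hybridised in 1 colour to 1 of the 8 arrays of a single slide.

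The RefSeq table (GRCm38.p6) held entries for 3 of the 4 members, and not for miR-320. Their mature sequences are shown because the array reads the mature miRNA and because bases 2 to 8, the seed in capitals, set which messenger RNAs it pairs with. The array names miR-702 and miR-1224 without an arm, so both arms of these hairpins are given.
miR-484: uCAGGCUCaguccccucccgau
miR-702-5p: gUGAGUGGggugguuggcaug
miR-702-3p: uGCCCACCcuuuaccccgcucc
miR-1224-5p: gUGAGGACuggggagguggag
miR-1224-3p: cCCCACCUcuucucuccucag
No seed was shared among these 5 sequences. Of the 1679 mature mouse miRNA names in the table, 1 other, mmu-miR-3102-5p, had the seed of miR-702-5p, and it was not on the array. The other 4 seeds occurred once each. All 5 sequences were rich in G and C, at 61.9% to 68.2%, against a median of 52.2% over the 1679.

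The ends of a hairpin show its origin where it is a whole intron, which begins with GU and ends with AG. The hairpin of miR-1224 is printed with these ends in capitals, beside that of miR-877, a mirtron of Abcf1 used below for comparison.
miR-1224 hairpin: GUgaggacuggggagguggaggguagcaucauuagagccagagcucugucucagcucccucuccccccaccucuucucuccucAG
miR-877 hairpin: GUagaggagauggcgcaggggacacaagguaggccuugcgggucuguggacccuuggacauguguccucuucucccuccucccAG
Both start with GU and end with AG, as did 30 of 1005 mouse hairpins in the table (2.985%). The deposited hairpin entry of miR-702 does not start or end this way, although its 5p arm starts with GU, at base 136991442 of chromosome 5. In the same annotation miR-702 lies within the span of Plod3, which encodes a collagen-modifying lysyl hydroxylase, on chromosome 5 from 136991433 to 136991541. miR-1224 lies within the span of Vwa5b2, on chromosome 16 from 20604452 to 20604536. The other two lie outside the spans of other genes. miR-320, on chromosome 14 from 70443510 to 70443591, is 39 bases from Polr3d, which encodes a subunit of RNA polymerase III. miR-484, on chromosome 16 from 14159626 to 14159692, is 348 bases from Marf1. No host gene was measured here.

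Each array gave 20 spots to a member, spread over probes that pair with one end of the miRNA. In the array's own annotation (mm9) the 2 probes of miR-320 span 70843373 to 70843385 of chromosome 14 and the 2 of miR-484 span 14159729 to 14159744 of chromosome 16. The 4 probes of miR-702 span 137467394 to 137467410 of chromosome 5 and the 4 of miR-1224 span 20604534 to 20604545 of chromosome 16. The deposited total gene signal is an intensity without scaling between arrays, and it differed widely among arrays. The 75th percentile of the mean probe signal, taken over the 177 mouse miRNAs detected on every array, was 101 to 144 units on untreated arrays and 157 to 280.5 on CpG arrays. The scaled signals below are log2 ratios to this percentile, so that 0 is the 75th percentile of the array. Between 191 and 203 mouse miRNAs were detected on untreated arrays and between 213 and 236 on CpG arrays. All 4 blood and myeloid markers, miR-223, miR-142-3p, miR-142-5p and miR-155, were detected on all 8 arrays. Of 16 markers of liver, muscle, neurons, epithelium, red cells, endothelium, stroma and lymphocytes, 13 were detected on none. The exceptions were miR-206 on 3 CpG arrays and miR-200c and miR-141, each on 1 untreated and 4 CpG arrays. The list of markers was not complete. miR-200b, of the same family as miR-200c, was not on it and was detected on all 8 arrays. Its mean scaled log2 signals were -4.32 on untreated and -4.91 on CpG arrays. The summed signal of the 16 was 11.8 to 30.5 units on untreated and 18.4 to 42.0 on CpG arrays, and its part in the results was not tested.

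All 4 Drosha-independent miRNAs were detected on all 8 arrays, and the mean of each was lower with CpG after scaling but higher without it. miR-484 was the 1 member past the threshold of the fit over all miRNAs (limma, Benjamini-Hochberg adjusted p under 0.05) and the 1 member whose groups did not overlap. Across the 212 miRNAs tested, 14.2% passed in either direction, 6.6% passed as lower with CpG, and 26.9% had groups that did not overlap. With 4 members chosen in view of this contrast nothing is read from the count. The median difference of the 4 was -0.49 and that of the 212 was -0.19, on the log2 scale, and 64.6% of the 212 differences were negative. Among only the 177 miRNAs detected on all 8 arrays, as the 4 were, the median was -0.26. Relative to that median, miR-320 lay at 0.008, miR-484 at -0.40, miR-702 at -0.30 and miR-1224 at -0.18. In bulk RNA, fewer cells that make a miRNA and less of it in each cell cannot be told apart.

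**Figure D1:**
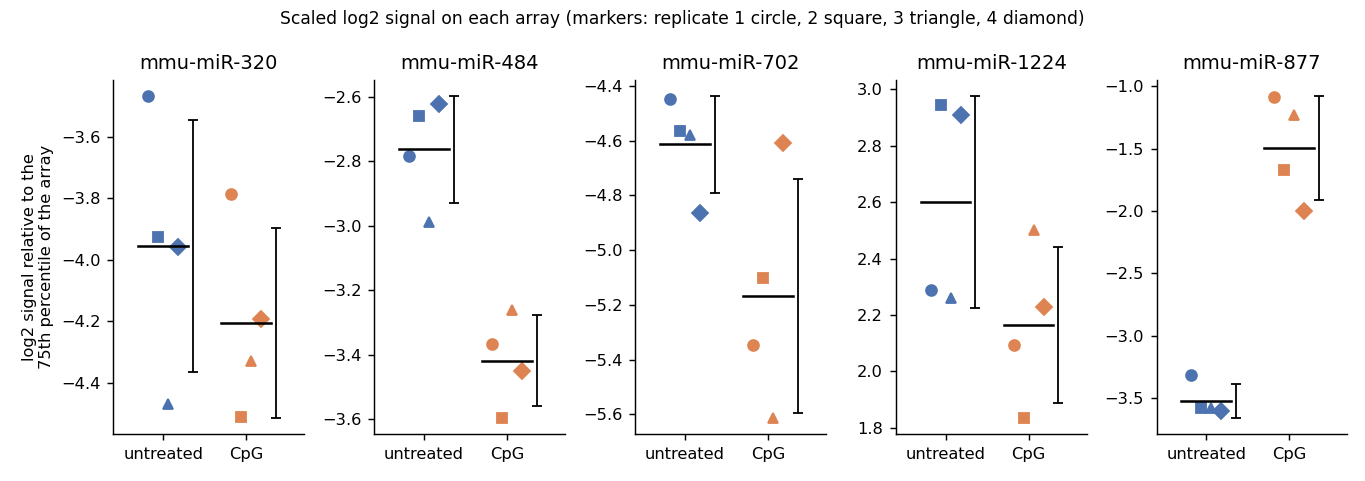
Scaled log2 signal (vertical axis, relative to the array's 75th percentile, with a separate range in each panel) of the 4 members and of miR-877 on each of the 4 untreated and 4 CpG arrays. Points are arrays, horizontal lines are means and the offset bars are 1 SD. The groups separate for miR-484, lower with CpG on this scale but not without scaling, and for miR-877, higher with CpG, and overlap for miR-320, miR-702 and miR-1224.

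miR-484, one of the directly transcribed hairpins, had scaled log2 signals of -2.78, -2.66, -2.99 and -2.62 on untreated arrays 1 to 4 and of -3.37, -3.60, -3.26 and -3.45 on CpG arrays 1 to 4. Every CpG array lay below every untreated array. The means were -2.76 ± 0.17 and -3.42 ± 0.14 (SD, n = 4 each), a difference of -0.66 (SE 0.14), or 1.58-fold lower with CpG. This difference lay at percentile 4.25 of the 212 tested. Within slide row 1 it was -0.71 and within row 2 it was -0.60, each from 2 arrays a group. Unscaled, the signal of miR-484 was 20.8, 26.6, 25.6 and 26.9 units on untreated arrays 1 to 4 and 21.5, 28.4, 26.4 and 35.0 on CpG arrays, so the groups overlapped, with means of 25.0 ± 2.81 and 27.8 ± 5.62 (SD, n = 4 each). On that scale the difference of mean log2 signals was 0.14, while the 75th percentile was 1.74-fold higher on CpG arrays (0.80 on the log2 scale). The miR-484 difference was thus negative with that shift divided out and positive without scaling. It was also slightly negative, at -0.10, when scaled on the control features named hur, whose shift was 0.24 on the log2 scale.

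The call on miR-484 also depended on single arrays. It was past the threshold in 3 of the 8 fits that left out 1 array, and was lost when untreated replicate 1, 2 or 4, or either of CpG replicates 2 and 3, was left out, with differences of -0.71 to -0.54 over the 8 fits. Both of its probes moved alike. The probe spanning 16 bases, above background on all 40 spots of each group, differed by -0.64 after scaling, and the probe spanning 15 bases, above background on 24 untreated and 26 CpG spots of 40, differed by -0.70. For both, the scaled values of the groups did not overlap.

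miR-320, the other directly transcribed hairpin, showed no separation of the groups. Its scaled log2 signals were -3.47, -3.93, -4.47 and -3.96 on untreated arrays 1 to 4 and -3.79, -4.51, -4.33 and -4.19 on CpG arrays 1 to 4. Untreated array 3 lay below 3 of the 4 CpG arrays, and untreated array 1 above all of them. The difference of -0.25 (SE 0.23) compared means of -3.95 ± 0.41 and -4.20 ± 0.31 (SD, n = 4 each) and was smaller than either SD. It lay at -0.06 relative to the median of all tested miRNAs. Without scaling, miR-320 read 13.0, 11.05, 9.18 and 10.6 units on untreated arrays and 16.0, 15.1, 12.6 and 20.9 on CpG arrays, and the groups overlapped by a single pair of arrays. The unscaled log2 difference was 0.55, the largest of the 4 members on that scale and close to the shift of 0.60 in the median of all tested miRNAs. Its probe spanning 12 bases had 1 untreated and 9 CpG spots of 40 well above background, and the probe of 13 bases had 32 and 39. After scaling, the probe of 12 bases differed by -0.04 and the probe of 13 bases by -0.34.

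miR-702, the mirtron of Plod3, was read close to background, and its groups overlapped. Its scaled log2 signals were -4.45, -4.56, -4.58 and -4.86 on untreated arrays 1 to 4 and -5.35, -5.10, -5.61 and -4.61 on CpG arrays 1 to 4. CpG array 4 lay among the untreated arrays, and the other 3 CpG arrays below all of them. The means were -4.61 ± 0.18 and -5.17 ± 0.43 (SD, n = 4 each), with a difference of -0.55 (SE 0.22). It was -0.32 within slide row 1, which holds CpG array 4, and -0.79 within row 2. Without CpG replicate 4 the difference was -0.74 and passed the threshold. Unscaled, miR-702 read 6.57, 7.10, 8.49 and 5.67 units on untreated arrays and 5.43, 9.99, 5.17 and 15.7 on CpG arrays. CpG arrays 2 and 4, the brightest of the 8, thus lay above every untreated array and CpG arrays 1 and 3 below every one, and the difference of mean log2 signals was 0.24. None of the 20 spots of a group was well above background for the probes of 14 and 15 bases. For the probes of 16 and 17 bases, 2 and 7 untreated spots and 4 and 11 CpG spots were. Few spots thus carried the reading of miR-702, although it had a detection flag on all 8 arrays.

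miR-1224, the mirtron of Vwa5b2, lay far above the array's 75th percentile in both groups. Its scaled log2 signals were 2.29, 2.94, 2.26 and 2.91 on untreated arrays 1 to 4 and 2.09, 1.84, 2.50 and 2.23 on CpG arrays 1 to 4. The untreated arrays fell into a pair near 2.3 and a pair near 2.9, and the CpG arrays spanned the lower pair. The means were 2.60 ± 0.38 and 2.16 ± 0.28 (SD, n = 4 each), and the difference of -0.44 (SE 0.22) was the same in slide row 1 (-0.44) as in row 2 (-0.43). Unscaled, it read 701, 1290.4, 972 and 1241 units on untreated arrays and 943, 1226, 1432 and 1796 on CpG arrays, with overlapping groups and a log2 difference of 0.36. Its 4 nested probes had all 20 spots of each group well above background, and none was saturated. Their scaled differences were -0.60, -0.54, -0.49 and -0.38 for spans of 9, 10, 11 and 12 bases, all in one direction. The probes of miR-1224 thus gave a bright reading of one sign after scaling, and its groups still overlapped.

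**Figure D2:**
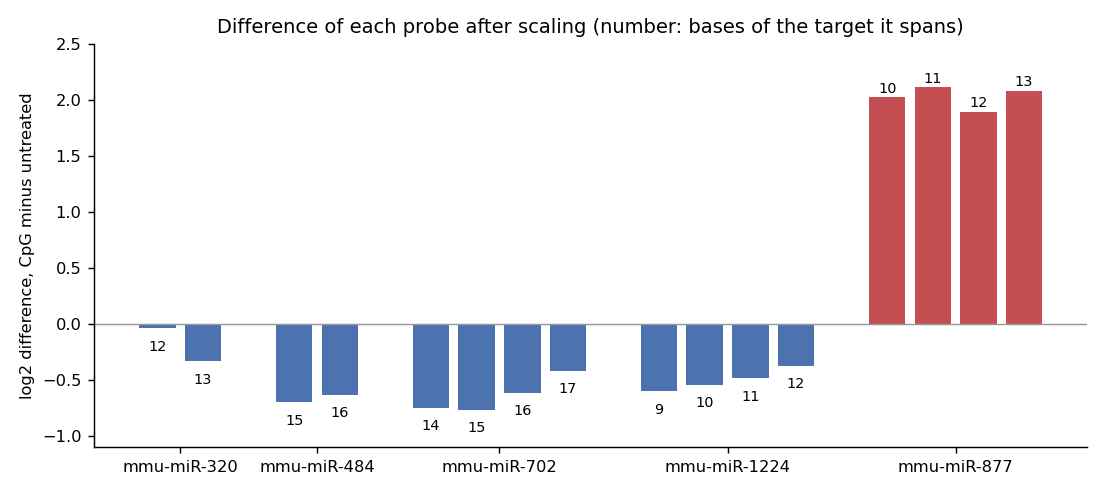
Log2 difference between CpG and untreated arrays (vertical axis) of each probe after scaling to the array's 75th percentile, grouped by miRNA. The number at each bar is the number of bases the probe spans. All 12 probes of the 4 members lie below 0, from -0.04 to -0.77, where without scaling the 4 members lie above 0, and the 4 probes of miR-877 lie between 1.90 and 2.11.

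Scaling decided the direction of all 4. Without scaling between arrays the differences were 0.55 for miR-320, 0.14 for miR-484, 0.25 for miR-702 and 0.36 for miR-1224. None of the 4 passed, where 88 of the 212 tested miRNAs did. An unadjusted limma p under 0.05 was reached by 1 of the 4. The share of the 212 at that p was not taken, so nothing is read from counts at that p. The bright control features named hur were 1.18 times as bright on CpG arrays by geometric mean. Scaled on them, the differences were 0.31, -0.10, 0.0056 and 0.12 in the same order. With that scaling 0 of the 4 passed or had an unadjusted p under 0.05, where 72 of the 212 passed. No source used here says what the hur features measure. Each of these settings divides an array by a single value or by none, which shifts every miRNA above the floor alike. The distance of the 4 to the other miRNAs was therefore bound to stay nearly the same. It was -0.06, -0.46, -0.36 and -0.24 from the median of the 212 as reported, and -0.05, -0.46, -0.35 and -0.24 without scaling. Over the 25 alternatives that tested the same 212, miR-484 (-0.59 to -0.16) and miR-702 (-0.57 to -0.03) stayed below their median. miR-320 (-0.20 to 0.01) and miR-1224 (-0.44 to 0.11) did not, each lying above it in 1 of the 25. Many of the 25 could hardly move this distance, as they change only a single factor per array, the floor or the limma options. All 25 reuse the same arrays, so nothing is read from their number. Whether the brighter CpG arrays reflect more miRNA or more label was not tested. Over all miRNAs the calls were 16 higher and 14 lower as reported. The split was 88 and 0 without scaling, 87 and 0 in the authors' deposited table and 70 and 2 on the hur features. It was 17 and 5 by median of ratios, 16 and 7 by the 75th percentile over all miRNAs and 11 and 7 by the median. Quantile normalization gave 9 and 10, and cyclic loess 11 and 9. With normexp background correction it was 6 and 132 under the reported scaling and 7 and 5 under quantile normalization.

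**Figure D3:**
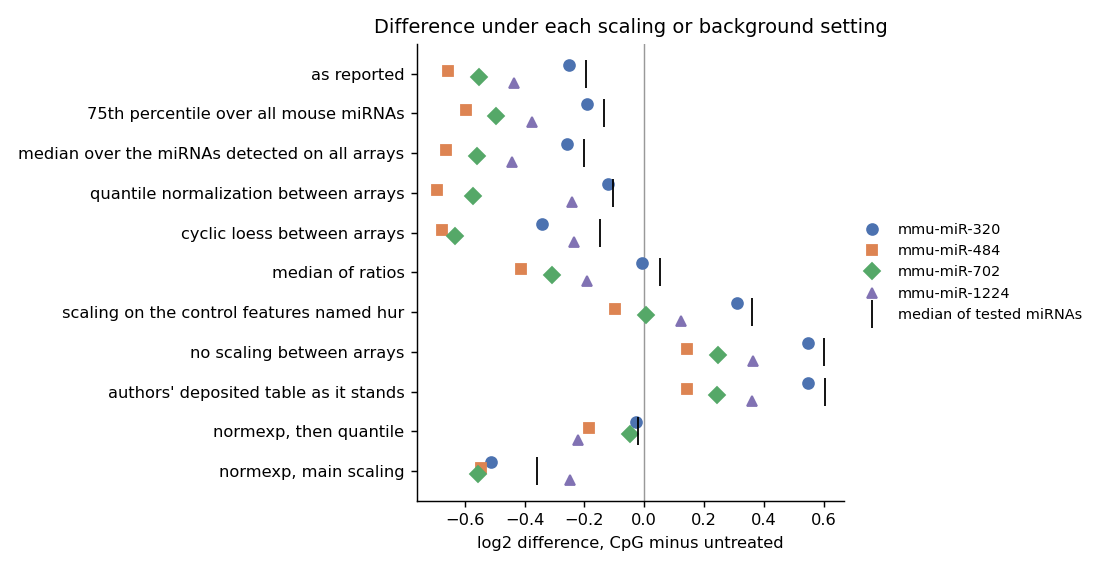
Log2 difference between CpG and untreated arrays (horizontal axis) of each member under 11 settings of scaling or background correction, with the median of the 212 tested miRNAs as a vertical tick. All 4 members lie above 0 without scaling and in the authors' deposited table, and all 4 lie below 0 as reported.

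**Figure D4:**
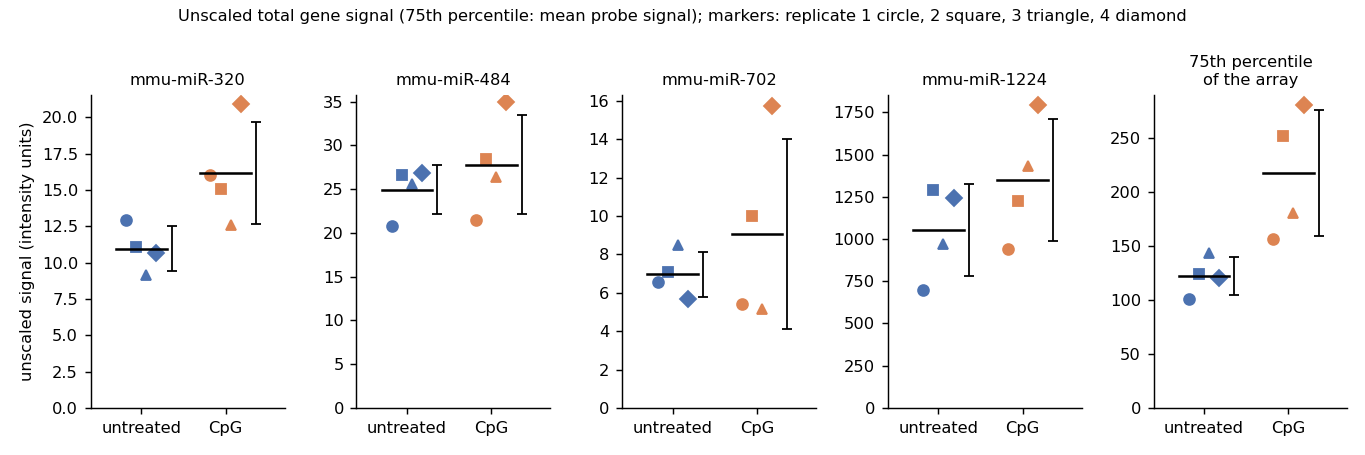
Unscaled total gene signal (vertical axes from 0, in intensity units) of the 4 members on each array, with the array's 75th percentile of mean probe signal in the right panel. Points are arrays, lines are means and bars are 1 SD. The 75th percentile separates the groups, and none of the 4 members does.

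Differences between miRNAs on the same array do not depend on a scaling by a single value per array. Quantile normalization or another background correction can change them. miR-702 was left out of these differences, as few of its spots were well above background. For the 3 pairs of the other members, the log2 signal of one minus that of the other overlapped between untreated and CpG arrays in all 3. The largest change was between miR-320 and miR-484, from -1.19 ± 0.35 to -0.79 ± 0.28 (SD, n = 4 each), 0.41 towards miR-320. The signal of miR-320 includes its shorter probe, which also had few spots well above background. The smallest was between miR-320 and miR-1224, from -6.55 ± 0.54 to -6.37 ± 0.39 (SD, n = 4 each). At this spread no unequal change among miR-320, miR-484 and miR-1224 could be seen, which does not show that they changed alike.

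miR-877, a mirtron like miR-702 and miR-1224, was higher with CpG both with and without scaling, where those members were lower after scaling and higher without it. It read 14.4, 14.0, 17.0 and 13.6 units on untreated arrays and 104, 108, 108 and 95.9 on CpG arrays. No CpG array came near the untreated range. Mean scaled log2 signals of -3.52 ± 0.14 without and -1.50 ± 0.42 with CpG (SD, n = 4 each) differed by 2.02 (SE 0.21), and the unscaled difference of mean log2 signals was 2.82, against 0.24 for miR-702 and 0.36 for miR-1224. Set against miR-320, miR-484 and miR-1224 on the same array, miR-877 gained between 2.27 and 2.68 on the log2 scale, with no overlap of the groups in any of the 3 comparisons. Against miR-1224 it went from -6.12 ± 0.47 to -3.66 ± 0.44 (SD, n = 4 each). On these arrays miR-1224 and miR-877 changed unequally with CpG. miR-877 was taken up with its high value known, at percentile 99.5 of the 212 differences. Its separation from the members was thus largely set beforehand. The share of other miRNA pairs without overlap was not taken, and nothing is read from the comparison about mirtrons.

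**Figure D5:**
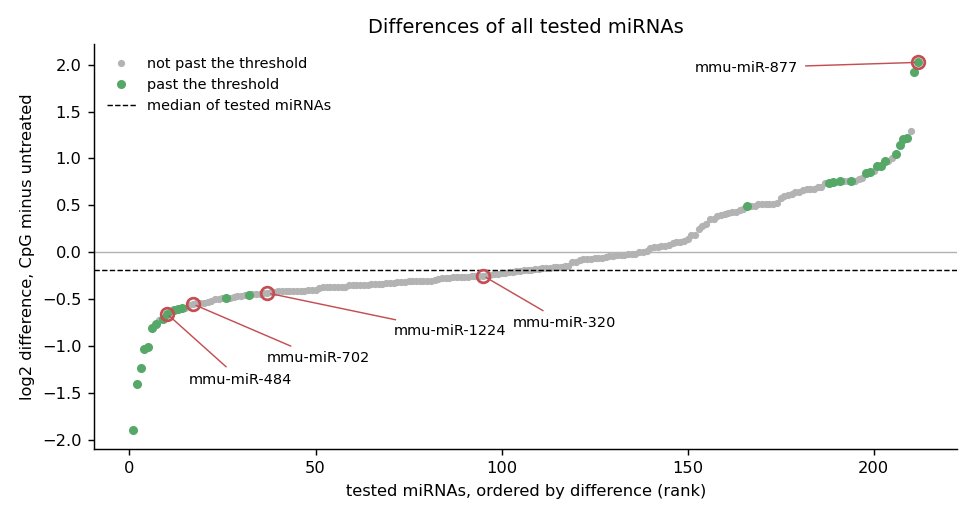
Log2 difference between CpG and untreated arrays (vertical axis) of all 212 tested miRNAs in order of size (horizontal axis, rank), with the 4 members and miR-877 ringed and named. Green points passed the threshold and the dashed line is the median of -0.19. After scaling the 4 members lie below the median, and miR-877 lies at the upper end. Without scaling all 4 are above 0, while their place relative to the median is bound to stay nearly the same.

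Other miRNAs reported to bypass Drosha were taken as a short list, for which the array was not searched in full. They were miR-877, the other arm of its hairpin, miR-877*, and the 2 arms of miR-712, which has been reported to come from a spacer of ribosomal RNA. Of these 4, 3 were tested. miR-877 rose past the threshold, miR-712 fell past it by 0.72 on the log2 scale (SE 0.17) but was 0.08 higher without scaling, and miR-877* did not pass, at 0.68 (SE 0.37). The median of the 3 was the 0.68 of miR-877*, against -0.19 for the 212 tested, of which 14.2% passed the threshold. As miR-877 and miR-877* are arms of the same hairpin, nothing is read from this median. miR-712* was detected on no array. Untreated arrays gave miR-712 a mean scaled log2 signal of -3.81 ± 0.27 and CpG arrays -4.52 ± 0.16 (SD, n = 4 each). Its unscaled means were 12.1 ± 0.87 and 12.9 ± 2.67 units (SD, n = 4 each). miR-877* read 194 units on untreated array 3, against 63.2 to 74.0 on the other untreated arrays, and 97.2 on CpG array 1, against 264 to 370.4 on the other CpG arrays, so that its groups overlapped. The unscaled means of miR-877*, 98.7 units untreated and 274 with CpG, lay above those of miR-877, 14.7 and 104. On CpG array 1 miR-877 read higher, at 104 units. miR-451, which is cut by Drosha and matured by Ago2 without Dicer, and which is abundant in red cells, was detected on no array.

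The members did not follow one another closely from array to array. Over the 8 arrays the scaled signals of miR-484 and miR-1224 had r = 0.82, and 0.88 after each group's mean was subtracted. The other 5 pairs had r between 0.21 and 0.52, and between -0.50 and 0.49 within groups. Of the 176 other miRNAs detected on every array, those most like miR-484 were miR-139-5p (r = 0.99, 0.94 within groups), miR-30c (0.97, 0.75) and miR-223 (0.96, 0.77), each also detected on all 8 arrays. Those most like miR-320 were miR-29c (0.97, 0.96 within groups), miR-33 (0.96, 0.95) and miR-193 (0.94, 0.93). Those most like miR-1224 were miR-188-5p (0.91, 0.88 within groups), miR-378* (0.91, 0.85) and miR-689 (0.87, 0.82). The likeness was weakest for miR-702, with miR-125b-5p (0.86, 0.87 within groups), miR-20a (0.81, 0.58) and let-7f (0.80, 0.55). These values of r describe 8 points that share the scaling factor of each array, and they were picked as the highest of 176.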

How the data were processed

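Per the file headers, the spot intensities of each array were extracted with Agilent Feature Extraction 9.5.3.1. The deposited processed signal of a spot is its intensity less background and spatial trend. Deposited gene summaries give each miRNA a total signal and flag its detection. The authors' table of 260 miRNAs holds the same intensities unscaled: all 2080 values equalled the total signal within 0.1%, counting 41 values of 0.01 that stand for signals at or below it. The submitters' processing notes list limma with no version or role.

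Spots without outlier flags were averaged per probe and then per miRNA, divided by the array's 75th percentile over miRNAs detected on all arrays, floored at 0.0107 and taken to log2. miRNAs detected on at least 3 of 4 arrays of a group were tested with limma 3.58.1 in R 4.3.3 (lmFit, eBayes, two-sided, Benjamini-Hochberg over the 212 miRNAs, threshold 0.05). The fit was tested on simulated data. The number of arrays limits the precision.

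The members, lists and alternatives were chosen with earlier results of these data known. Named miRNAs were the members, other miRNAs reported to bypass Drosha, miR-451, and for each member the 3 miRNAs of highest correlation over the arrays. Sequences are from RefSeq (GRCm38.p6), array coordinates are mm9, and none were converted. Alternatives changed the scaling, background, summary, filter, floor or limma options, blocked on replicate number or slide row, or dropped 1 array at a time. Figures were drawn with matplotlib 3.10.9.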

Additional observations from a re-analysis of the deposited data

How the results depend on the processing

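As reported, 30 miRNAs and 1 member, miR-484, passed the limma threshold. The count of all miRNAs was 88 without scaling, 87 in the authors' deposited table, 72 on the hur control features, 18 with the median, 19 with quantile normalization, 12 with normexp and quantile, 138 with normexp and the reported scaling, 55 with medians over probes and spots, 48 with a floor 2 times higher, 3 with no filter on dim miRNAs, and 5 to 71 when 1 array was left out. Members past it were 0 without scaling, in the deposited table, on the hur features, with the 75th percentile over all miRNAs, the median, median of ratios, normexp and quantile, and no filter. Of these settings, 1 member without scaling, in the deposited table, with median of ratios and with normexp and quantile, 2 with the 75th percentile over all miRNAs, the median and no filter, and 0 on the hur features had an unadjusted limma p under 0.05. The share of all tested miRNAs under that unadjusted p was not taken, so nothing is read from these counts. Members past it were 3 with normexp and the reported scaling (miR-320, miR-484 and miR-702), and 0 to 2 when 1 array was left out. The difference of miR-484 turned positive, at 0.14, without scaling and in the deposited table, neither of which divides out the 75th percentile, 0.80 higher with CpG on the log2 scale. miR-484 passed in 14 of 27 alternatives, miR-702 in 2, miR-320 in 1 and miR-1224 in 0. With the replicate block 38 miRNAs and 1 member passed. Deviations of samples with the same replicate number correlated at 0.28, -0.26, 0.25 and 0.096, so the numbers were not taken to pair the samples. Signal over background limits miR-702 and the shorter probe of miR-320.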
